A study of Mus musculus with 6 samples.

Results

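The 10 genes described here are the mouse genes for the histone variant H3.3 (H3f3a and H3f3b) and for the chaperones that carry histone H3 to chromatin (Hira, Cabin1, Ubn1, Daxx, Atrx, Asf1a, Chaf1a and Chaf1b). They were taken by symbol from a table of read counts for 35976 genes, and all 10 were found and passed the filter on low counts, which kept 13761 genes. Polyadenylated RNA came from chondrocytes of the hind limb articular cartilage of day 18.5 mouse embryos (C57BL/6 x 129S4/SvJae), expanded on plastic for 16 population doublings with 2 µg/ml doxycycline. In both groups doxycycline induced a transgene for H3.3. Residue 9 of that protein, a lysine, was replaced by methionine in the H3K9M group (replicates 1, 3 and 5), and the protein was wild-type in the H3WT group (replicates 1, 2 and 4). The cells' own H3.3 genes are not described as altered in either group, the promoter of the transgene is not given in the sources used here, and the labels do not say whether replicates came from separate animals. P-values therefore measure the spread between these libraries, which may be technical.

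Histone H3.3 differs from the H3 proteins made for S phase in only a few residues, and it can be placed on DNA at any point of the cell cycle. The HIRA complex, in which HIRA works with UBN1 and CABIN1, deposits H3.3 mainly at active genes and regulatory elements, whereas DAXX with the remodeller ATRX deposits it at telomeres, pericentric repeats and retroelements. ASF1A hands H3 and H4 on to HIRA or to CAF-1. CAF-1, built from CHAF1A, CHAF1B and RBBP4, places the S-phase H3 proteins behind the replication fork, and in cultured cells it also helps to keep heterochromatin and cell identity stable.

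The starts of the H3.3 coding sequences are shown because lysine 9, the residue replaced in the H3K9M transgene, lies there. Each line gives the first 60 bases of the coding sequence in GENCODE M21, 5′ to 3′, with the lysine 9 codon in capitals (the initiator methionine is not counted in histone numbering).
H3f3a: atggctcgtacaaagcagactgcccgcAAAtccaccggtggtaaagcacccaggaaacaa
H3f3b: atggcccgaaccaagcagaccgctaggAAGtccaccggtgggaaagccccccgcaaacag
The capitals mark coding bases 28 to 30. In GRCm38, the build called mm10 in the submitters' processing notes, the H3f3a codon lies on the minus strand of chromosome 1 at 180811897 to 180811899, in exon 2 of 4 of its longest coding transcript. The H3f3b codon lies on the minus strand of chromosome 11 at 116023980 to 116023982, in exon 4 of 6. Both genes encode the same protein through different codons. Their coding sequences, 411 bases each with the stop codon, differ at 95 bases, of which 81 are at the third position of a codon, and 13 of the differences fall in the 60 bases shown. The longest stretch that both coding sequences share without a mismatch is 23 bases, starting at base 313 of the H3f3a coding sequence and shown because no longer identical run was found between the longest coding transcripts either.
Shared stretch: tttgaagataccaatctgtgtgc
A read that covers more than such a stretch therefore holds at least 1 base that differs between H3f3a and H3f3b, but the mutated codon cannot be read from gene counts. Whether transgene reads were counted under either gene is not given in the sources used here.

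The cells carried chondrocyte markers alongside genes of fibroblasts and, at lower levels, of muscle. Col2a1, the main collagen of cartilage, ranged from 4910 to 14100 CPM (counts scaled to a common library size with TMM) and Col1a1, a collagen of fibroblasts and bone, from 3680 to 18900 CPM. The 5 fibroblast markers summed to 7910 to 21100 CPM in H3K9M and 6420 to 24500 CPM in H3WT. H3WT replicate 2 (6420) and H3K9M replicate 3 (7910) were the lowest libraries. The groups overlapped in each of the 5, and 0 of 5 had an unadjusted p under 0.05 (edgeR), beside 12.2% of all tested genes. The 8 chondrocyte markers summed to 7290 to 11400 CPM in H3K9M and 7180 to 18800 CPM in H3WT, with H3WT replicate 2 highest, and Sox9 and Acan were present in every library. All 8 had log2 fold changes below 0 (median -0.605), beside 50.4% of all tested genes. The groups overlapped in each of the 8. Col9a1 alone had an unadjusted p under 0.05 (log2 fold change -1.892, edgeR adjusted p 0.395), beside 12.2% of all tested genes in either direction. The 6 skeletal muscle markers summed to 18.2 to 134 CPM in H3K9M and 6.38 to 27.1 CPM in H3WT, and 3 of the 4 that were tested had an unadjusted p under 0.05 (edgeR), all higher in H3K9M, beside 12.2% of all tested genes in either direction. None of the 4 passed the adjusted threshold (Tnnt3 0.216, Myod1 0.244 and Myh3 0.249, edgeR adjusted p). Of 7 macrophage and blood markers 4 had no count in any library (Ptprc, Adgre1, Tyrobp and Hbb-bs). The 2 that were tested had higher means in H3K9M, without passing the test. Cd68, a lysosomal protein, had 2.61, 12.8 and 4.74 CPM in H3K9M and 0.618, 3.37 and 2.00 CPM in H3WT (log2 difference 1.75, edgeR adjusted p 0.411). Csf1r, a receptor of macrophages, had 3.55, 2.13 and 3.42 CPM in H3K9M and 3.71, 0 and 1.83 CPM in H3WT (log2 difference 0.717, edgeR adjusted p 0.858). Of the endothelial markers, 0 of 5 passed the filter. The part of chondrocyte, fibroblast, muscle or macrophage cells in the differences given here was not tested. Without H3WT replicate 2 the log2 fold changes (H3K9M minus H3WT, edgeR) were 0.0293 for H3f3a, 0.0471 for H3f3b, 0.0179 for Hira, -0.296 for Cabin1 and -0.224 for Ubn1. They were -0.197 for Daxx, 0.0505 for Atrx, 0.32 for Asf1a, -0.393 for Chaf1a and 0.162 for Chaf1b, and the values with all libraries are given with each gene. In bulk RNA fewer cells of a type and less RNA per cell cannot be told apart.

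None of the 10 genes passed the test between the groups. Libraries held 15113675 to 19606082 counts, and with edgeR's quasi-likelihood test and p-values adjusted over 13761 genes (Benjamini-Hochberg, threshold 0.05) 0 of the 10 genes and 0.0% of all tested genes were called. The smallest adjusted p among the 10 was 0.382. At an unadjusted p under 0.05, 1 of the 10 genes (Chaf1a) was called, against 12.2% of all tested genes in either direction and 5.77% toward lower values. The 3 values of one group all lay on one side of those of the other in 2 of the 10 genes (Cabin1 and Daxx, both lower in H3K9M), against 19.4% of all tested genes in either direction and 8.68% in that direction. The counts of 1 and 2 in 10 are near the shares of 12.2% and 19.4% over all genes. DESeq2 called 390 genes, or 2.83% of those tested, and 0 of the 10. The fit without H3WT replicate 2 called 91 genes (0.639%), also with 0 of the 10.

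With all 6 libraries the interval of each gene's fold change lay within 2-fold. The 95% interval of the fold change (H3K9M over H3WT, from the edgeR fit and not adjusted for the number of genes) fell within 2-fold in either direction for each of the 10 genes, as it did for 59.1% of all tested genes. That share was not taken over genes of like level, and the 10 genes stood at level percentiles 35.3 (Asf1a) to 99.2 (H3f3a). Leaving out 1 library carried the interval past 2-fold for Asf1a (4 of 6 fits, up to 2.25), Chaf1a (3 of 6 fits, down to 0.448) and Chaf1b (1 of 6 fits, up to 2.03), and scaling by library size alone did so for Asf1a (2.01). The median log2 fold change of the 10 genes was -0.101, with 6 below 0 and 4 above, beside a median of -0.003 over all tested genes, 50.4% of which were below 0.

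**Figure D1:**
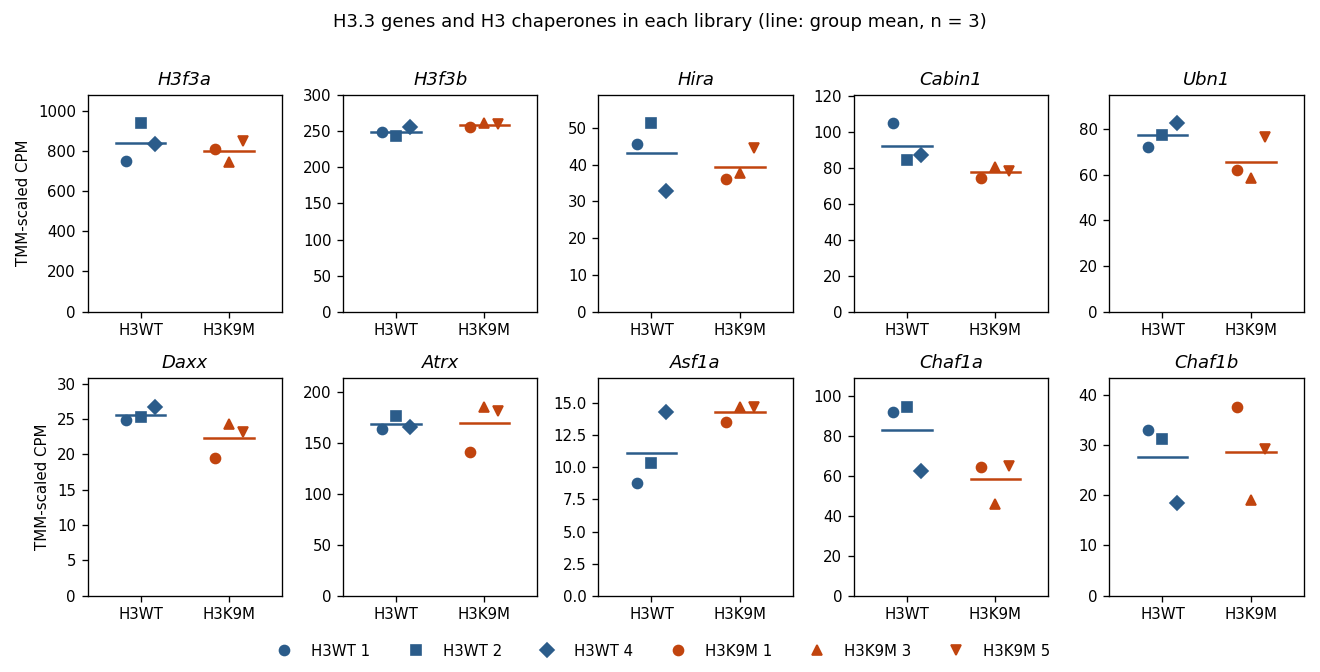
TMM-scaled CPM of each gene (vertical axis, from 0) in the 3 H3WT and 3 H3K9M libraries, with 1 point per library and a line at the group mean. The groups are apart only for Cabin1 (74.36 to 80.21 in H3K9M, 84.52 to 104.9 in H3WT) and Daxx, and H3f3b is nearly level over the 6 libraries.

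The H3.3 genes were the most abundant of the 10 and showed no group difference past the test. H3f3a, on chromosome 1 from 180800832 to 180813943, had 806.5, 745.9 and 850.5 CPM in the H3K9M libraries (always given as replicates 1, 3 and 5), against 748.6, 938.7 and 832.5 CPM in H3WT (always replicates 1, 2 and 4). The groups overlapped, since H3WT replicate 1 lay below H3K9M replicates 1 and 5, and H3WT replicate 2 was the highest library. The fold change had a 95% interval of 0.765 to 1.19, and its direction turned without H3WT replicate 2. H3f3b, on chromosome 11 from 116021912 to 116027962, had 255.7, 261.8 and 260.4 CPM in H3K9M and 249.0, 242.9 and 256.6 CPM in H3WT. Its values overlapped by less than 1 CPM, between H3K9M replicate 1 and H3WT replicate 4, and the interval of its fold change was 0.879 to 1.23. Its direction turned, to a log2 value of -0.122, when transcript length and GC content were taken into account per library.

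H3f3b was among the steadiest transcripts in the table. The highest library was 1.08 times the lowest, and the SD of its log2 CPM over the 6 libraries was 0.041, against a median of 0.323 over tested genes. That SD stood at percentile 0.1 of all tested genes, for a mean level at percentile 95.5. H3f3a, at percentile 99.2 by level, had an SD of 0.125, at percentile 7.2. Over the 10 genes the SD ran from 0.041 to 0.427, and it was below the median of all tested genes in 8. Genes of like level were not compared.

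Taken as a sum, H3f3a and H3f3b gave 1062, 1008 and 1111 CPM in H3K9M and 997.7, 1182 and 1089 CPM in H3WT. The group means were 1060 ± 51.6 and 1089 ± 92.0 CPM (SD, n = 3 each), a ratio of 0.973. With TMM scaling, the summed level thus differed between the groups by less than the SD of either. After correcting for length and GC content both genes had lower estimates in H3K9M (log2 fold changes -0.224 for H3f3a, SE 0.139, and -0.122 for H3f3b, SE 0.109), and neither passed the test. H3f3a made up 75.9%, 74.0% and 76.6% of the H3f3a and H3f3b counts in H3K9M and 75.0%, 79.4% and 76.4% in H3WT. The means were 75.5% ± 1.32 and 77.0% ± 2.25, and the difference of -1.47 points had p = 0.5 (exact permutation test, two-sided, smallest possible p 0.1). Without H3WT replicate 2 it was -0.239 points.

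Counts of the H3.3 genes are uncertain to the extent that reads were shared with copies elsewhere or came from the transgene. Transcripts of 41 other genes matched H3f3a at 90% identity or more over at least 200 bases, and 3 of them had a row in the table, with 1983 counts in all beside 89706 for H3f3a. The longest match among these, H3f3c on chromosome 2, which GENCODE M21 lists as a processed pseudogene, held 861 counts (log2 fold change 0.053, SE 0.261, edgeR adjusted p 0.96). For H3f3b there were 3 such genes, of which Gm6485 had a row, with 1630 counts beside 27812 (log2 fold change -0.039, SE 0.189, edgeR adjusted p 0.959). H3f3a also overlaps H3f3aos and Gm17275 on the opposite strand, and the strand setting of the counting is not given in the sources used here.

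Per base of transcript, the H3.3 genes stood far above their chaperones. Scaled to the longest coding transcript in GENCODE M21, the mean over the 6 libraries was 289 CPM per kb for H3f3a and 101 CPM per kb for H3f3b. Atrx followed at 16.5, Chaf1b at 14.6, Chaf1a at 12.8, Cabin1 at 11.4, Ubn1 at 11.1, Hira at 9.81, Daxx at 8.97 and Asf1a at 5.79 CPM per kb. The ranges over libraries of the 2 H3.3 genes (263 to 330 and 96.6 to 104) overlapped neither each other nor any chaperone. Each chaperone's range overlapped that of its neighbours from Atrx (13.8 to 18.1) down to Daxx (7.29 to 10.0), whereas Asf1a (3.98 to 6.70) lay below all others. This order depends on the transcript chosen for the length. Whether transgene reads are part of the H3f3a and H3f3b values is not given in the sources used here.

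The estimates for the HIRA complex genes were slightly below 0 with TMM scaling, with no call, and after correcting for length and GC content they were near 0 (-0.0111 for Hira, 0.0365 for Cabin1 and -0.0629 for Ubn1, log2). Hira, the scaffold of the complex (chromosome 16, 18877037 to 18970309), had 36.17, 37.69 and 44.54 CPM in H3K9M and 45.75, 51.42 and 32.75 CPM in H3WT. H3WT replicate 4 was the lowest library and H3WT replicate 2 the highest, and without replicate 2 the log2 fold change turned from -0.134 to 0.0179. Hira overlaps Gm28539, listed as protein-coding, on the same strand. Transcripts of 1 other gene matched Hira at 90% identity or more over at least 200 bases, with 0 rows among the counts. How reads of such stretches were counted is not given in the sources used here. Cabin1, a large subunit also known as an inhibitor of calcineurin (chromosome 10, 75646112 to 75764341), had 74.36, 80.21 and 78.01 CPM in H3K9M against 104.9, 84.52 and 86.83 CPM in H3WT. All 3 H3K9M libraries lay below all 3 H3WT libraries, with H3WT replicate 1 farthest out. The log2 fold change was -0.248 (SE 0.126, edgeR adjusted p 0.464). It was -0.144 without H3WT replicate 1 and 0.0365 with the correction for length and GC content. The GC content of the longest Cabin1 transcript, 56.6%, is the highest of the 10 genes. Why the Cabin1 value moved with the correction was not tested.

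Ubn1, which contacts H3.3 and gives the complex its preference for the variant (chromosome 16, 5050057 to 5086289), had 62.17, 58.66 and 76.73 CPM in H3K9M and 72.14, 77.36 and 82.83 CPM in H3WT. The groups overlapped through H3K9M replicate 5, and the fold change had an interval of 0.68 to 1.06. Its log2 value moved from -0.234 to -0.0629 after correcting for length and GC content. Ubn2 is a paralogue of Ubn1 in the same kind of complex. Ubn1 took 69.8%, 59.4% and 67.0% of the counts of both genes in H3K9M and 64.3%, 66.2% and 68.5% in H3WT. The difference of -0.934 points had p = 0.9 (exact permutation test, two-sided), and its sign turned without H3K9M replicate 3 (2.06 points).

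Neither Daxx nor Atrx, the partners of the other H3.3 route, passed the test. Daxx, which binds H3.3 with H4 (chromosome 17, 33909414 to 33915590), had 19.49, 24.30 and 23.11 CPM in H3K9M and 24.81, 25.37 and 26.75 CPM in H3WT. The groups did not overlap, but H3K9M replicate 3 and H3WT replicate 1 lay within 1 CPM of each other. The log2 fold change was -0.201 (SE 0.166, edgeR adjusted p 0.665). It was -0.111 without H3K9M replicate 1 and -0.108 after correcting for length and GC content. Atrx, the remodeller that brings DAXX to repeats (chromosome X, 105797615 to 105929403), had 141.4, 185.9 and 181.6 CPM in H3K9M and 164.5, 177.3 and 165.6 CPM in H3WT. H3K9M replicates held both the lowest and the highest value. Its log2 fold change of 0.005 changed sign under 8 of 14 alternatives, between -0.0561 and 0.122, and the interval of the fold change was 0.807 to 1.25.

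Asf1a, the chaperone upstream of both HIRA and CAF-1, was the member with the largest difference toward higher values in H3K9M, short of the test. The gene lies on chromosome 10 from 53596757 to 53609225. It had 13.53, 14.74 and 14.69 CPM in H3K9M and 8.758, 10.33 and 14.37 CPM in H3WT, on 156 to 305 counts per library, the fewest of the 10 genes. The H3K9M libraries were close together while H3WT replicate 4 lay within their range. The log2 fold change was 0.361 (SE 0.247, edgeR adjusted p 0.594). Leaving out H3WT replicate 4 gave 0.587, and the value was 0.214 without H3WT replicate 1 and 0.082 after correcting for length and GC content. Of the 2201 bases of its longest coding transcript, 68.8% also lie in exons of Mcm9 on the opposite strand, so reads could be shared. Mcm9, a helicase gene, had 9.65, 7.73 and 9.08 CPM in H3K9M and 10.2, 5.97 and 8.01 CPM in H3WT. These values cannot show whether reads were shared or dropped, since the strand setting of the counting is not given.

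Asf1b is the paralogue of Asf1a that is tied to proliferation. Asf1a took 30.1%, 48.6% and 34.6% of the counts of both genes in H3K9M and 20.5%, 27.1% and 41.4% in H3WT. The share was highest in H3K9M replicate 3 and next in H3WT replicate 4. The means were 37.7% ± 9.64 and 29.7% ± 10.7 (SD, n = 3 each), and the difference of 8.06 points had p = 0.4 (exact permutation test, two-sided).

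Of the CAF-1 genes, Chaf1a had the largest difference of the 10 and Chaf1b almost none, and neither passed the test. Chaf1a, the large subunit that binds PCNA (chromosome 17, 56040439 to 56072289), had 64.38, 45.71 and 65.15 CPM in H3K9M and 91.96, 94.64 and 62.44 CPM in H3WT. H3WT replicates 1 and 2 lay above every other library, while H3WT replicate 4 fell among the H3K9M libraries. The log2 fold change was -0.508 (SE 0.205, unadjusted p 0.038, edgeR adjusted p 0.382). It ran from -0.674 without H3WT replicate 4 to -0.349 without H3K9M replicate 3, and correcting for length and GC content brought it to -0.297. Chaf1b, the middle subunit (chromosome 16, 93883901 to 93906115), had 37.65, 19.04 and 29.29 CPM in H3K9M and 32.95, 31.18 and 18.50 CPM in H3WT. Its lowest libraries were one of each group, and its log2 fold change of 0.055 had an interval of 0.64 to 1.69 on the fold scale. Its direction turned without H3K9M replicate 1 or without H3WT replicate 4.

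**Figure D2:**
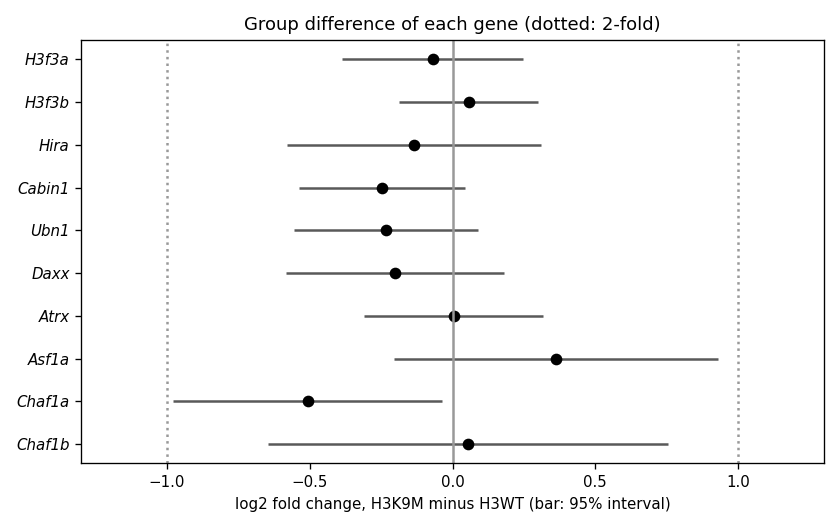
Log2 fold change of each gene (points) with its 95% interval (bars), H3K9M minus H3WT, from the edgeR fit over 6 libraries, with dotted lines at 2-fold. All 10 intervals lie between the dotted lines, and that of Chaf1a, -0.98 to -0.036, is the only one that leaves out 0 before adjustment.

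Set against each other within a library, where scaling between libraries plays no part, the CAF-1 subunits separated the groups in raw counts. Chaf1a took 63.1%, 70.6% and 69.0% of the Chaf1a and Chaf1b counts in H3K9M, against 73.6%, 75.2% and 77.1% in H3WT. Every H3K9M library lay below every H3WT library. The share was highest within each group in the low-CAF-1 libraries, H3K9M replicate 3 (70.6%) and H3WT replicate 4 (77.1%). How often other pairs of genes separate the groups was not computed, and 19.4% of single tested genes do so. The means were 67.6% ± 3.95 and 75.3% ± 1.77 (SD, n = 3 each). The difference of -7.77 points had p = 0.1 (exact permutation test, two-sided), the smallest p that 3 against 3 libraries allow, so it cannot pass 0.05 in this design. It stayed between -9.28 and -5.53 points when any 1 library was left out. The share was not corrected for length and GC content. In the edgeR fit that correction moved the difference between the log2 fold changes of Chaf1a and Chaf1b from -0.563 to -0.297. This was 1 of 4 shares compared, and adjusted over the 4 (Benjamini-Hochberg) the exact p was 0.4.

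**Figure D3:**
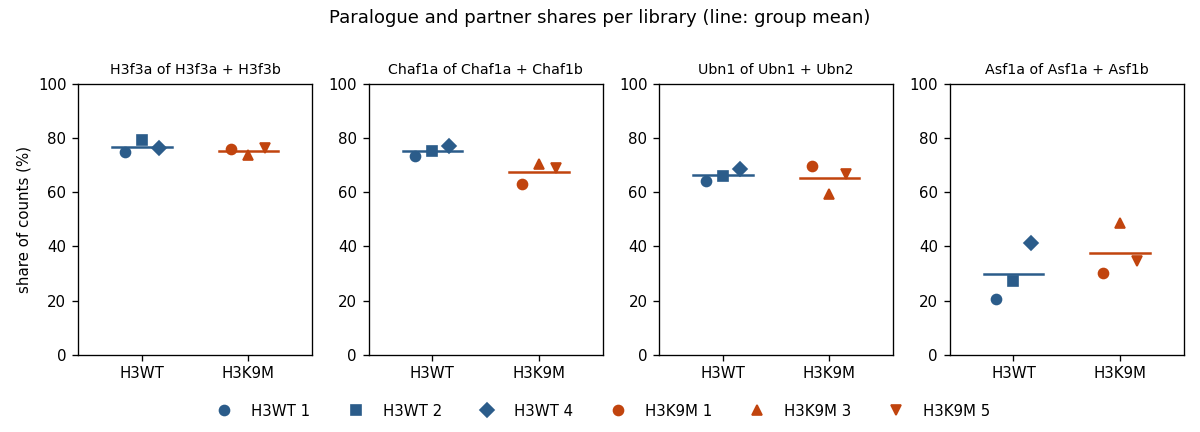
Share of the first gene's counts in the counts of both genes (vertical axis in percent, from 0 to 100), with 1 point per library and a line at the group mean. The groups are apart only for Chaf1a against Chaf1b (63.1% to 70.6% in H3K9M, 73.6% to 77.1% in H3WT).

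Chaf1a overlaps Ubxn6, an adaptor of the segregase p97, on the opposite strand, and 48.6% of the 5535 bases of its longest coding transcript lie in Ubxn6 exons. Ubxn6 had 62.7, 61.1 and 63.1 CPM in H3K9M and 53.6, 62.7 and 56.2 CPM in H3WT (log2 difference 0.115, SE 0.121, edgeR adjusted p 0.751). Ubxn6 was lowest in H3WT replicate 1, where Chaf1a was among its highest, and second lowest in H3WT replicate 4, where Chaf1a was also second lowest. If strand was not used in counting, reads of that stretch could have been shared or dropped for both genes.

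The transcripts most like Chaf1a over the 6 libraries were Uhrf1 and Dnmt1. Likeness was measured as Pearson's r of log2 CPM over 6 libraries against 13761 genes, with no test, since among so many genes high values turn up for any pattern of 6 points. Uhrf1, a reader of hemimethylated DNA (r = 0.996), had 83.6, 61.7 and 89.3 CPM in H3K9M and 128, 126 and 84.3 CPM in H3WT. Dnmt1, the maintenance DNA methyltransferase (r = 0.992), had 185, 130 and 187 CPM in H3K9M and 243, 244 and 168 CPM in H3WT. In both genes, as in Chaf1a, H3WT replicates 1 and 2 were highest and H3K9M replicate 3 lowest. This shared order, and fold changes in the direction of Chaf1a, follow largely from choosing the genes by likeness. The log2 fold changes were -0.53 for Uhrf1 (SE 0.204, edgeR adjusted p 0.364) and -0.385 for Dnmt1 (SE 0.2, edgeR adjusted p 0.471). Uhrf1 lies 231 kb from Chaf1a on chromosome 17, and Dnmt1 is on chromosome 9.

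Chaf1b had other neighbours, the mitotic genes Aurka (r = 0.986) and Ndc80 (r = 0.982). Aurka, a mitotic kinase, had 75.2, 31.8 and 59.5 CPM in H3K9M and 68.0, 56.4 and 34.6 CPM in H3WT. H3K9M replicate 1 was its highest library, as for Chaf1b and not for Chaf1a. Asf1a was most like Eci1, an enzyme of fatty acid oxidation (r = 0.997), and Efcab7 (r = 0.991). For the rest, the nearest pair was Ddt and Lins1 for H3f3a, Itpr2 and Ppm1h for H3f3b, Slc35c1 and Map3k7 for Hira, and Spns1 and Polr2a for Cabin1. It was Zfp354c and Impad1 for Ubn1, Hyal1 and Rufy3 for Daxx, and Arhgap44 and Nxpe4 for Atrx. The lowest of these values was 0.981, for Polr2a with Cabin1.

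The libraries lowest in both CAF-1 genes were also the lowest in proliferation genes. Centred on its mean over libraries, the log2 CPM of 18 S phase and proliferation genes had a median of 0.12, -0.34 and 0.02 in H3K9M, against 0.20, 0.30 and -0.27 in H3WT. H3K9M replicate 3 and H3WT replicate 4 were the lowest pair here, in Chaf1a and in Chaf1b. Of the 18 genes 17 had a log2 fold change below 0, beside 50.4% of all tested genes, and the groups overlapped in each of the 18. The library medians given above overlapped between the groups as well. The median log2 fold change was -0.178, against -0.508 for Chaf1a and 0.055 for Chaf1b. Uhrf1 alone had an unadjusted p under 0.05 (0.0315, edgeR), beside 12.2% of all tested genes, and 0 of 18 passed the adjusted threshold with edgeR. The part of proliferation in the Chaf1a difference was not tested.

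**Figure D4:**
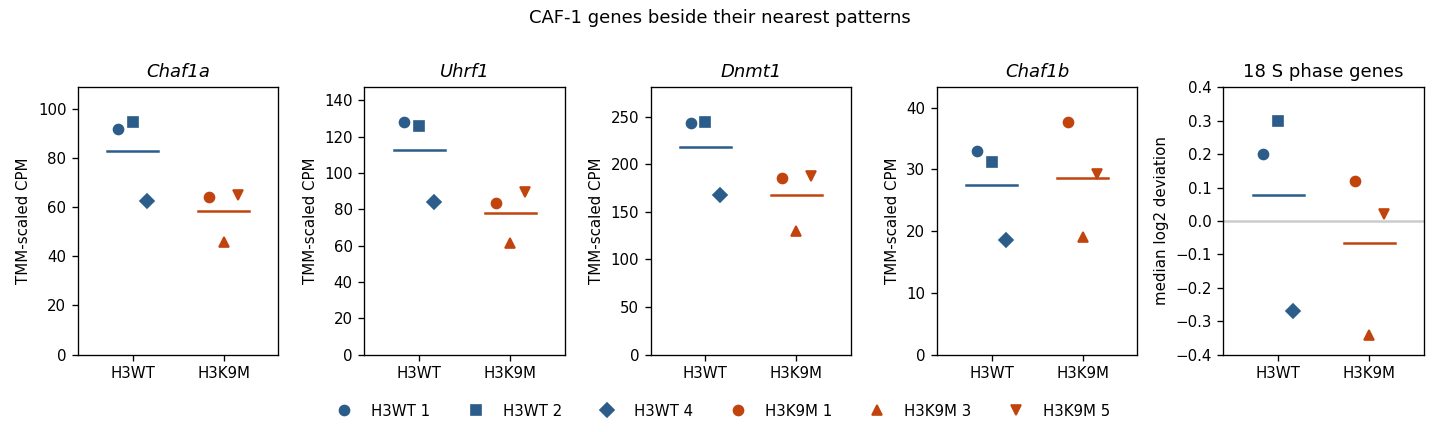
TMM-scaled CPM of Chaf1a, Uhrf1, Dnmt1 and Chaf1b (from 0), and the median log2 deviation of 18 S phase and proliferation genes from their means, with 1 point per library and a line at the group mean. H3K9M replicate 3 is lowest for Chaf1a, Uhrf1, Dnmt1 and the S phase genes, and Chaf1b is highest in H3K9M replicate 1. The 18 genes include Uhrf1.

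Other genes of histone H3 supply and deposition gave no call either, with 0 past an adjusted p of 0.05 in every list (edgeR), beside 0.0% of all tested genes. The values of list genes are given without the correction for length and GC content. Among partners of HIRA and of DAXX-ATRX, 10 of 11 listed genes were tested, and the median log2 fold change was -0.182. Of the 10, 8 were lower, beside 50.4% of all tested genes. Pml, the scaffold of the nuclear bodies that gather DAXX and ATRX, was the 1 gene of this list with an unadjusted p under 0.05. Over all tested genes that share was 12.2% in either direction and 5.77% toward lower values. Pml had 46.9, 64.5 and 37.4 CPM in H3K9M and 76.4, 72.8 and 60.9 CPM in H3WT (log2 difference -0.497, SE 0.207, edgeR adjusted p 0.393). Its groups overlapped through H3K9M replicate 3, and Sp100, a further nuclear body gene, was at 0 or close to it in every library. In 1 of the 10 tested genes of this list the groups did not overlap, beside 19.4% of all tested genes.

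In the list of CAF-1 partners and replication-coupled H3 supply, 12 of 12 genes were tested, with 6 higher, 6 lower and a median of -0.018. Of the 12, 0 had an unadjusted p under 0.05, beside 12.2% of all tested genes. Rbbp4, the third subunit of CAF-1, had 153 to 176 CPM in H3K9M and 150 to 166 CPM in H3WT. The smallest p-values were those of Cdan1, whose product holds ASF1 in the cytoplasm (log2 fold change -0.323, SE 0.169, edgeR adjusted p 0.474), and Tonsl, a reader of newly placed H4 (-0.321, SE 0.218, edgeR adjusted p 0.592). The groups did not overlap in 1 of the 12 genes, Cdan1 (lower in H3K9M), beside 19.4% of all tested genes.

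Among the 10 genes of FACT and of transcription-coupled H3-H4 chaperones, 3 had an unadjusted p under 0.05, 1 higher and 2 lower, with a median log2 fold change of -0.004, beside 12.2% of all tested genes in either direction. Npm1, an abundant nucleolar chaperone, had 743, 594 and 673 CPM in H3K9M and 548, 478 and 482 CPM in H3WT (log2 difference 0.414, SE 0.137, edgeR adjusted p 0.299). Supt6 had 173, 204 and 175 CPM against 208, 240 and 249 CPM (-0.335, SE 0.129, edgeR adjusted p 0.363). Supt6 and Supt16 serve chromatin behind RNA polymerase, the former as a chaperone of its own and the latter as a subunit of FACT. Supt16 had 132, 113 and 128 CPM against 161, 151 and 142 CPM (-0.282, SE 0.117, edgeR adjusted p 0.393). The groups did not overlap in these 3 genes and in Chd1, 4 of the 10 on the list, beside 19.4% of all tested genes, and none passed the correction over all genes.

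The 5 genes of CENP-A, the centromeric H3 variant, and its loading factors had log2 fold changes above 0 in each case, with a median of 0.118. Over all tested genes 50.4% were below 0. Of the 5, 0 had an unadjusted p under 0.05, beside 12.2% of all tested genes. Mis18a, of the complex that primes centromeres for CENP-A, had 9.38, 8.36 and 9.54 CPM in H3K9M and 9.66, 3.42 and 6.72 CPM in H3WT. Cenpa itself had 50.6, 24.8 and 63.6 CPM against 41.2, 48.5 and 24.2 CPM, low in the same H3K9M replicate 3 and H3WT replicate 4 as Chaf1b. Both genes overlapped between the groups.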

How the data were processed

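The authors deposited whole-number read counts per gene symbol for 6 libraries, not normalized. HISAT2, featureCounts, DESeq2 and the build mm10 are named in the submitters' processing notes; versions, annotation, strand and multimapping settings are not given in the sources used here. Of the table's columns, 0 belonged to other samples. Counts were fitted in R 4.3.3 with edgeR 4.0.16 (filterByExpr, TMM, robust glmQLFit, glmQLFTest, genotype as the only term) over 13761 genes, with Benjamini-Hochberg adjustment and a threshold of 0.05. SE is the log2 fold change divided by the root of the F statistic. CPM are TMM-scaled, and log2 CPM used a prior count of 2. Shares were compared by exact permutation tests. Positions, lengths and sequences came from GENCODE M21 (GRCm38), similar transcripts from blastn 2.17.0. The fit was tested on simulated counts, drawn independently for each gene, with changes of 2-fold or more. Smaller changes, and genes that vary together over libraries, were not simulated. Alternatives were DESeq2 1.42.0, limma-voom (limma 3.58.1), other scalings and filters, a loess offset (span 0.5) on length and GC content, and leaving out each library; a fit without robust estimation was added after seeing the data. The members, lists and tests were chosen with earlier results of these data known. Besides the members, the rule named list genes with an unadjusted p under 0.05 (at most 4) or else the 2 smallest, and the 2 genes most like each member; Ubxn6, Mcm9, H3f3c, Gm6485, Rbbp4 and Sp100 were named after their values were seen.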

Additional observations from a re-analysis of the deposited data

How the results depend on the processing

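No paired analysis was possible because the groups share only 1 replicate number. Of the 10 genes, 0 were called under any of the alternatives run, including the fit without robust estimation, which was chosen after the data were seen. Over all genes the count of 0 became 390 with the DESeq2 Wald test and 36 when genes with at least 1 count were all tested. Leaving out single libraries gave 0 to 91 (91 without H3WT replicate 2, 2 without H3K9M replicate 3); the cause was not tested. Of 140 log2 fold changes of the 10 genes under alternatives, 126 kept their sign and 14 turned. With the length and GC correction, H3f3b turned to -0.122 and Cabin1 to 0.0365. Atrx turned with DESeq2 (-0.00179), limma-voom (-0.0039), DESeq2 size factors (-0.00201) and at least 10 counts in every library (-0.000263). With single libraries left out, Atrx ran from -0.0561 to 0.122, H3f3a from -0.145 to 0.0293, Hira from -0.298 to 0.0179 and Chaf1b from -0.187 to 0.289. The turned values were -0.0376, -0.0151 and -0.00879 for Atrx without H3K9M replicate 5, H3WT replicate 1 and H3WT replicate 4, and -0.162 for Chaf1b without H3WT replicate 4. The Ubn1 share difference ran from -3.14 to 2.06 points and was 0.152 without H3WT replicate 4. The Asf1a share difference ran from 2.65 to 13.9 points and the H3f3a share difference from -2.44 to -0.239 points. Asf1a had the fewest counts of the 10 genes, from 156 in H3WT replicate 1 to 305 in H3K9M replicate 3.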

Other observations

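Variants of another core histone, H2A, were looked at beside H3.3. All 10 listed genes of H2A variants and their chaperones were tested, with 6 higher, 4 lower and a median log2 fold change of 0.033. Of the 10, 0 had an unadjusted p under 0.05, beside 12.2% of all tested genes. The smallest p was that of H2afj, a gene for a replication-independent H2A, which had 55.7, 68.2 and 41.2 CPM in H3K9M and 33, 43.3 and 46.6 CPM in H3WT (log2 difference 0.426, SE 0.216, edgeR adjusted p 0.462). Anp32e, a chaperone that removes H2A.Z, followed (0.163, SE 0.134, edgeR adjusted p 0.663). In both genes the groups overlapped. They did not overlap in 1 other of the 10 listed genes, beside 19.4% of all tested genes.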
